A study of Arabidopsis thaliana with 12 samples.

Results

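The 6 genes described here encode proteins of the plastid ribosome of Arabidopsis thaliana and are carried in the nucleus. They were PRPL5 (AT4G01310), PRPL17 (AT3G54210), PRPL29 (AT5G65220) and PRPL34 (AT1G29070) of the large subunit and PRPS6 (AT1G64510) and PRPS10 (AT3G13120) of the small subunit. They were taken by locus, as probes that the platform annotation assigns to 1 gene, out of 689 genes with such a probe. Of 41 plastid ribosomal protein genes listed, 27 of the large and 14 of the small subunit, these 6 had a single-gene probe. The series held 12 expression arrays of total RNA from ecotype Columbia 0, 6 from wild type (WT) and 6 from psan, a mutant without the photosystem I subunit PSI-N, a lumenal protein. The mutant allele, the tissue, the age and the growth conditions were not given in the sources used here. Whether the numbered samples were grown or extracted separately is not stated in the labels, so a p-value here covers the spread of the arrays and no more, and that spread may be technical. A lower signal from bulk RNA can come from fewer cells that make a transcript or from less of it per cell, and these cannot be told apart.

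The plastid ribosome is a bacterial-type ribosome that translates the proteins encoded in the plastid genome, among them the core subunits of both photosystems, of the ATP synthase and the large subunit of Rubisco. Its ribosomal RNAs and some of its proteins are made in the plastid, while the remaining proteins are made in the cytosol from nuclear transcripts and imported. In green tissue the nuclear genes of these proteins are expressed together with many genes of photosynthesis.

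Each array gave 1 intensity per probe on a linear scale for 3439 probes, with a floor at exact 0 that held 4.68% to 15.1% of the probes. WT arrays 1 and 2 stood apart, with 499 and 521 probes at 0 against 161 to 215 on the other WT arrays, while the psan arrays had 213 to 371. In both groups arrays 1 and 2, 3 and 4, and 5 and 6 resembled each other. Their deviations from the group mean correlated with r from 0.0331 to 0.601 over 2243 probes above 0 on all arrays, against at most 0.0928 for other arrays of a group, and psan arrays 1 and 2 had the 0.0331. Because such a pair may be 1 sample measured again, each call is followed by its value with pairs averaged, which leaves 3 per group. The gene of the missing subunit itself, PSAN (AT5G64040), had deposited intensities of 4.40 to 7.77 in WT against 0.0681 to 0.243 in psan, and the groups were far apart.

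The comparison asked which of these transcripts differed in level between psan and WT, and whether large and small subunit proteins moved alike. PRPS6 of the small subunit fell in psan over 12 arrays. PRPL17 of the large subunit had a smaller negative difference close to the threshold, and PRPL5, PRPL34 and PRPS10 did not pass. PRPL29 was listed at 0 on every array and could not be tested. Of the 5 tested probes 1 passed an adjusted p of 0.05, and none passed with averaged pairs. The background was high: over all probes 29.9% passed over 12 arrays, 15.6% as lower in psan, and 4.30% passed with averaged pairs, so 1 call among 5 does not set these genes apart. Fold changes are log2 differences after quantile normalisation with zeros left out, fitted with limma over 3376 probes, unless stated otherwise.

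PRPS6 encodes the plastid counterpart of bacterial S6, which in Escherichia coli binds the platform of the small subunit together with S18. Its deposited intensity in WT was 0.106, 0.0619, 0.293, 0.225, 0.163 and 0.194 on arrays 1 to 6. In psan it was 0.0512, 0.0201, 0.0839, 0.0669, 0.135 and 0.135. Psan arrays 1 to 4 were below 5 of the WT arrays, while psan arrays 5 and 6 exceeded WT arrays 1 and 2, so the groups overlapped on this scale. The mean was 0.174 ± 0.0831 (SD, n = 6) over the WT arrays and 0.0820 ± 0.0461 (SD, n = 6) over the psan arrays, or 2.12-fold lower in psan.

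After normalisation, PRPS6 lay between -2.81 and -1.66 (log2 signal) on the WT arrays and between -5.66 and -3.19 on the psan arrays. The groups no longer overlapped, as for 11.5% of all probes in the same direction. The log2 fold change was -1.79 ± 0.40 (SE), or 3.46-fold lower, with a 95% interval from -2.67 to -0.92 and a limma adjusted p of 0.00530. Its place among all probes of an array was the 39.7th to 63.4th percentile in WT and the 11.9th to 32.9th in psan. These ranges did not overlap either, as for 10.4% of all probes in that direction. Quantile normalisation sets each value by this place, so the percentiles restate the normalised values and are no separate check. The lowest of these percentiles were on psan arrays 1 and 2 and the highest of psan on arrays 5 and 6. The log2 fold change was -1.26 without psan arrays 1 and 2 and -2.30 without psan arrays 5 and 6, so its size depended on the pair.

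With pairs averaged, the normalised PRPS6 signal was -2.53, -1.84 and -2.41 in WT and -5.14, -3.82 and -3.19 in psan. The 3 psan pairs were below the 3 WT pairs, as for 19.5% of all probes in that direction, but they spread over a wider range, and the limma adjusted p was 0.109. With the pair as a random block in place of averaging, PRPS6 passed (adjusted p = 0.0258), as did 16.4% of all probes. As deposited, with no scaling between arrays, the log2 fold change was -1.17 (adjusted p = 0.0978), where the median over all probes was 0.46. Relative to that median it was -1.63, against -1.78 after normalisation. Of the 338 probes in the same 10% step of mean signal, 13.9% were called lower in psan and 4.73% had a fold change as low as its own. An exact permutation test of the 6 against 6 deposited intensities gave a two-sided p of 0.0411, and of the 3 against 3 averaged pairs 0.2, where 0.1 is the smallest that design allows.

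**Figure D1:**
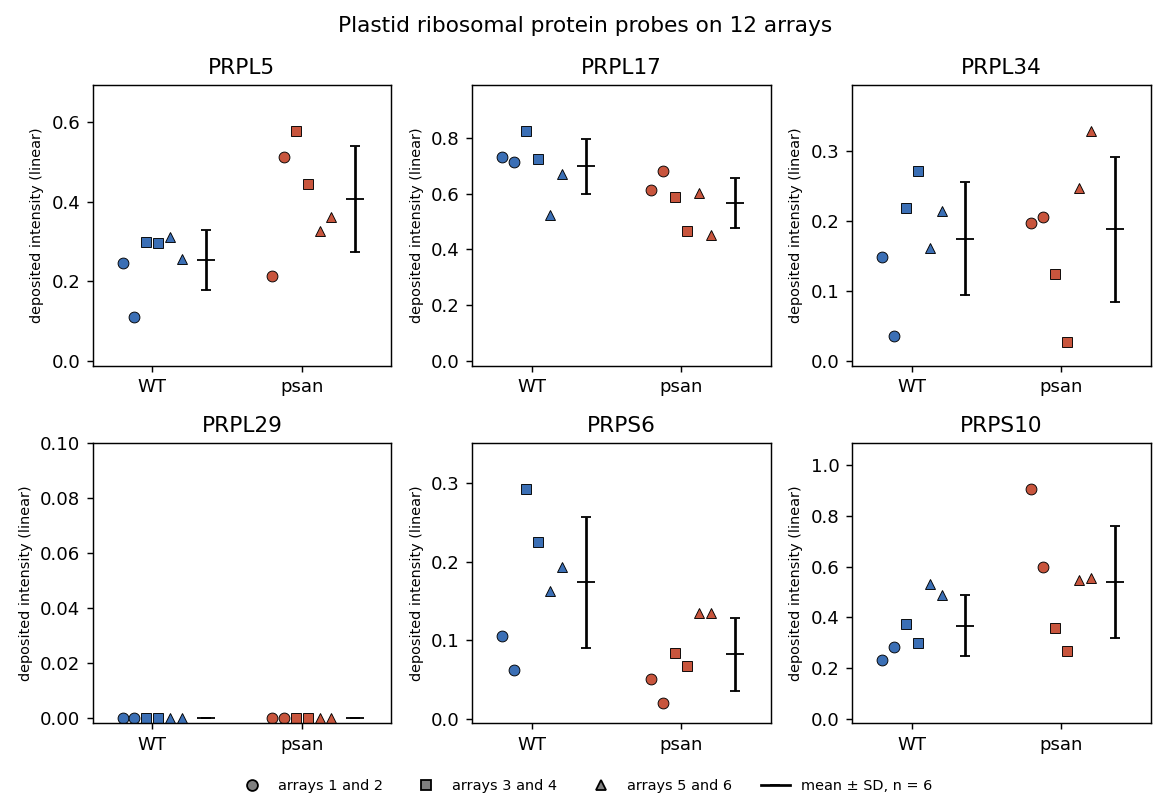
Deposited intensity (linear) of the 6 plastid ribosomal protein probes on each of the 6 WT and 6 psan arrays, with marker shapes for arrays 1 and 2, 3 and 4, and 5 and 6, and bars for the mean ± SD (n = 6). PRPS6 means were 0.174 in WT and 0.0820 in psan, with psan arrays 5 and 6 above WT arrays 1 and 2, and PRPL29 was at 0 on all 12 arrays.

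PRPS10, the other small subunit protein measured, is the plastid counterpart of bacterial S10, a protein of the head of the small subunit that in Escherichia coli also takes part in transcription antitermination. Its deposited intensity in WT was 0.232, 0.282, 0.373, 0.301, 0.531 and 0.487 on arrays 1 to 6. In psan it was 0.908, 0.599, 0.360, 0.269, 0.546 and 0.556. The largest value was that of psan array 1, while psan arrays 3 and 4 lay within the WT range and arrays 5 and 6 of both groups were close to each other. The mean was 0.368 ± 0.119 (SD, n = 6) over the WT arrays and 0.540 ± 0.221 (SD, n = 6) over the psan arrays. The log2 fold change after normalisation was 0.08 ± 0.27 (SE), with a 95% interval from -0.51 to 0.68 and a limma adjusted p of 0.854. The exact permutation test of the deposited intensities gave a two-sided p of 0.108 over 6 against 6 arrays and 0.3 over averaged pairs. Its sign depended on the arrays and the scaling, since it was -0.19 without psan arrays 1 and 2 and -0.16 under median centring, which sets the arrays to a common median. Relative to the median of all probes, the fold change was 0.034 under median centring, 0.052 as deposited and 0.097 after normalisation. On that measure it was -0.15 without psan arrays 1 and 2 and -0.44 with the correction for probe number described below.

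Of the large subunit, PRPL17 had the smallest standard error of the fold change among the 5 tested probes. Bacterial L17 lies near the exit of the tunnel through which the new protein leaves the ribosome. The deposited intensity of PRPL17 in WT was 0.730, 0.712, 0.824, 0.724, 0.524 and 0.669 on arrays 1 to 6. In psan it was 0.614, 0.680, 0.587, 0.466, 0.601 and 0.450. Of the WT arrays, 4 were above every psan array and WT array 5 was below 4 of the psan arrays. The mean was 0.697 ± 0.0988 (SD, n = 6) over the WT arrays and 0.567 ± 0.0899 (SD, n = 6) over the psan arrays, or 1.23-fold lower in psan.

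The log2 fold change of PRPL17 was -0.57 ± 0.21 (SE), with a 95% interval from -1.02 to -0.13, and its limma adjusted p of 0.0531 missed the threshold. Of the 338 probes in the same step of mean signal as PRPL17, 47.0% were called and 26.9% were called lower in psan. A fold change as low as that of PRPL17 was found for 31.1% of them. Without WT array 5 the fold change of PRPL17 was -0.68 and passed (adjusted p = 0.0246), as did 914 of 3370 probes. Median centring gave -0.98 (adjusted p = 0.00510), where 30.1% of all probes passed. That fold change counts from the array medians of log2 values, which were -2.88 to -2.27 in WT and -1.89 to -1.68 in psan. With averaged pairs the adjusted p was 0.306. Relative to the median of all probes the fold change was -0.56 after normalisation, -0.76 as deposited and -0.78 with median centring. The exact permutation test of the deposited intensities gave a two-sided p of 0.0433 over 6 against 6 arrays and 0.2 over averaged pairs.

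PRPL5 is the counterpart of bacterial L5, which binds the smallest ribosomal RNA in the central protuberance of the large subunit. Its deposited intensity in WT was 0.246, 0.111, 0.299, 0.297, 0.312 and 0.256 on arrays 1 to 6. In psan it was 0.213, 0.513, 0.578, 0.445, 0.328 and 0.362. Of the psan arrays, 5 were above every WT array and psan array 1 was below 5 of the WT arrays. The mean was 0.254 ± 0.0745 (SD, n = 6) over the WT arrays and 0.406 ± 0.132 (SD, n = 6) over the psan arrays, and the exact permutation test gave a two-sided p of 0.0411. With averaged pairs, the 3 psan values of 0.363, 0.511 and 0.345 were above the 3 WT values of 0.179, 0.298 and 0.284, as for 26.8% of all probes in that direction, with an exact p of 0.1, the smallest possible.

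This higher level of PRPL5 was on the deposited scale, on which most probes were higher in psan. Its log2 fold change as deposited was 0.68 (limma adjusted p = 0.125), or 0.22 above the median of all probes. After normalisation it was 0.11 ± 0.29 (SE), with a 95% interval from -0.52 to 0.74 and a limma adjusted p of 0.811. It was -0.16 without psan arrays 3 and 4, the pair with the highest PRPL5 level.

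PRPL34 encodes the counterpart of bacterial L34, a small basic protein of the large subunit. Its deposited intensity in WT was 0.149, 0.0363, 0.219, 0.271, 0.161 and 0.214 on arrays 1 to 6. In psan it was 0.198, 0.206, 0.124, 0.0269, 0.246 and 0.328. WT array 2 and psan array 4 were low, and the groups overlapped over most of their range. The mean was 0.175 ± 0.0810 (SD, n = 6) over the WT arrays and 0.188 ± 0.104 (SD, n = 6) over the psan arrays, with an exact permutation p of 0.803, or 0.9 with averaged pairs. The log2 fold change after normalisation was -0.67 ± 0.46 (SE), with a 95% interval from -1.66 to 0.32 and a limma adjusted p of 0.302. It was -0.14 without psan arrays 3 and 4. As deposited it was -0.00060. Relative to the median of all probes it was -0.46 as deposited and -0.65 after normalisation.

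PRPL29, the counterpart of a protein that in bacteria borders the tunnel exit, was listed at 0 on all 12 arrays, as were 12 of the 3439 probes. No level or fold change can be given for it.

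The 5 exact tests above are not adjusted for their number. The intervals of the 4 members that did not pass reached, at their far ends, 0.74 for PRPL5, 0.68 for PRPS10, -1.02 for PRPL17 and -1.66 for PRPL34, so their p-values do not show that these transcripts were alike in WT and psan. The median log2 fold change of the 5 was -0.57, against -0.015 over all probes. As deposited these medians were -0.00060 and 0.46.

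**Figure D2:**
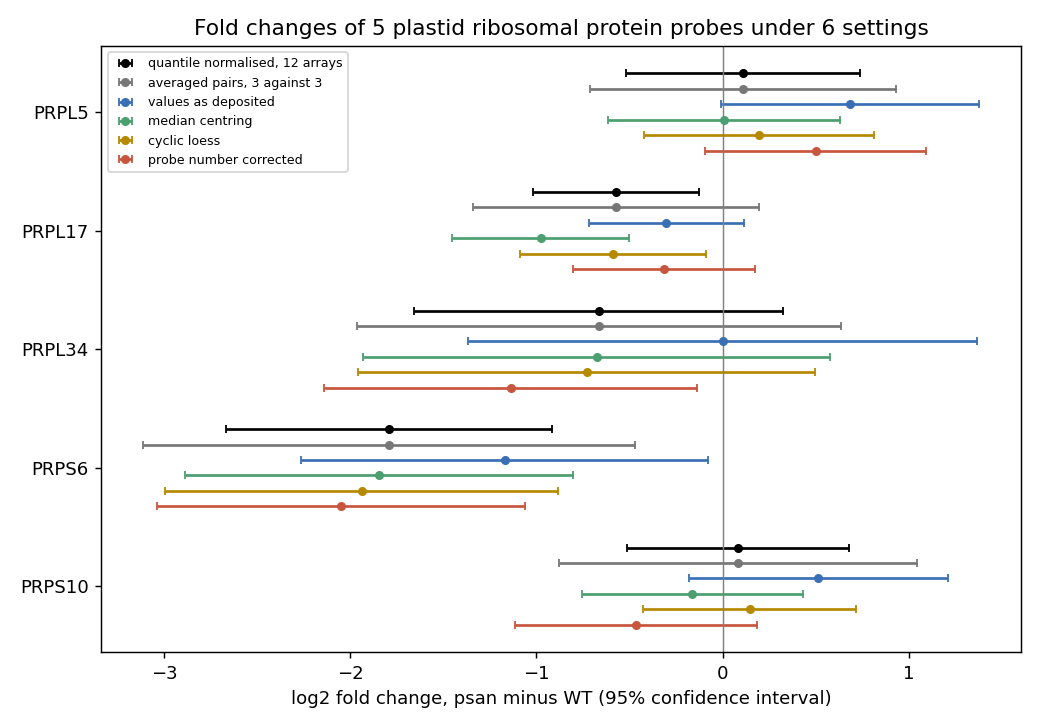
Log2 fold change (psan minus WT) of the 5 tested probes, with 95% confidence intervals, for 6 settings: quantile normalisation over 12 arrays, averaged pairs, values as deposited, median centring, cyclic loess and a correction for probe number. PRPS6 was negative under each, from -2.05 to -1.17, while PRPS10 ran from -0.46 to 0.51.

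Large and small subunit proteins were set side by side, and differences between members were not tested. Within the small subunit, PRPS6 had -1.79 and PRPS10 had 0.08. Within the large subunit, PRPL17 and PRPL34 had -0.57 and -0.67 and PRPL5 had 0.11. Ratios between probes of the same array do not depend on a scaling factor of the array, so they were compared as log2 deposited values after subtracting the WT mean. Differences between arrays that vary with signal level remain in such ratios. From deposited to normalised values, the fold change went from -0.00060 to -0.67 for PRPL34 and from -0.30 to -0.57 for the brighter PRPL17. No test was made on the ratios, because the genes were chosen with earlier results known.

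The mean of the small subunit probes over the mean of the 3 large subunit probes differed by -0.46 between psan and WT, and by -0.94 from normalised values with the probe number corrected. The WT arrays ranged from -0.61 to 0.31 and the psan arrays from -1.60 to -0.080. The groups overlapped, with psan arrays 2 and 3 below every WT array. Against PRPL17, the small subunit probes went opposite ways, with differences of 0.82 for PRPS10 and -0.87 for PRPS6 as deposited. From normalised values with the probe number corrected, the differences between fold changes were -0.15 for PRPS10 and -1.73 for PRPS6, so the direction of PRPS10 over PRPL17 turned.

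Of 7 such ratios of 1 member to another that were computed, PRPS6 over PRPL5 was the one that separated the groups. It ran from -0.58 to 0.61 on the WT arrays and from -4.03 to -0.64 on the psan arrays, a difference in means of -1.85. Of the 2242 other probes above 0 on all arrays, 9.50% had a ratio to PRPL5 that separated the groups in this direction. PRPS6 over its small subunit partner PRPS10 differed by -1.68 in the mean, with psan arrays at -3.71 to -0.82 and WT arrays up to 0.84, and WT array 2 overlapped the psan range. PRPS6 over PRPL34 differed by -1.17. On psan array 4, where PRPL34 was low, that ratio was 1.26, above every WT array, while the other 5 psan arrays were below every WT array.

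**Figure D3:**
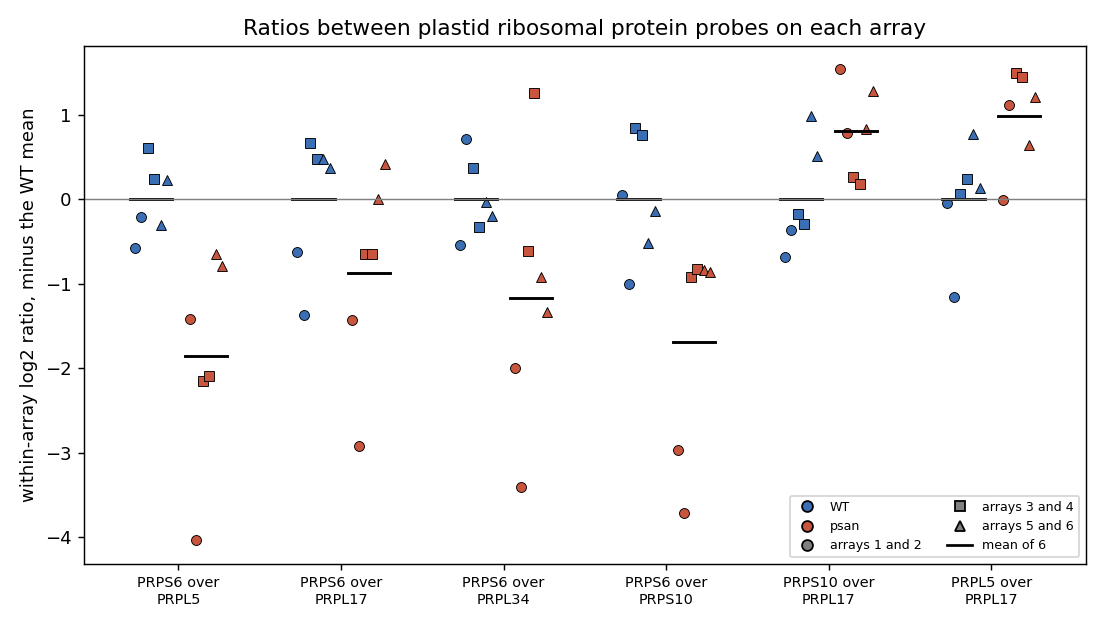
Within-array log2 ratios between plastid ribosomal protein probes, each minus the WT mean, on the 6 WT and 6 psan arrays, with horizontal bars for group means and marker shapes for arrays 1 and 2, 3 and 4, and 5 and 6. PRPS6 over PRPL5 separated the groups (WT down to -0.58, psan up to -0.64), and PRPS6 over PRPL17 did not.

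Over the 10 pairs of members, deviations from the group means after normalisation correlated with r from -0.743 to 0.462 over 12 arrays, which share normalisation and come in pairs. The lowest was between PRPL5 and PRPS10. Psan array 1 had the lowest PRPL5 and the highest PRPS10 level of the psan arrays, and psan arrays 3 and 4 had a high PRPL5 and the lowest PRPS10 levels. Among the psan pairs, PRPS6 was lowest on arrays 1 and 2 and PRPL34 on arrays 3 and 4. Among the WT pairs both were lowest on arrays 1 and 2 and highest on arrays 3 and 4.

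The fold change over all probes also varied with the probe number, so each member was set against the probes that share its bin of 12 numbers in a repeating cycle. PRPS6, PRPS10 and PRPL34 lay in bins whose other probes had positive medians, of 0.45, 0.43 and 0.54. PRPL5 and PRPL17 lay in bins with medians of -0.18 and -0.17. In the bin of PRPS6, 32 of 143 other probes were called higher and 9 lower in psan, so its own fall ran against its bin. With the probe number corrected, the fold change of PRPS6 was -2.05 (limma adjusted p = 0.00670) and 23.7% of all probes passed. PRPL34 then had -1.14 (adjusted p = 0.0922), PRPL5 had 0.50 (0.205), PRPL17 had -0.32 (0.333) and PRPS10 had -0.46 (0.282), and none of these 4 passed. With averaged pairs as well, PRPS6 had an adjusted p of 0.132 and 0.504% of all probes passed.

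**Figure D4:**
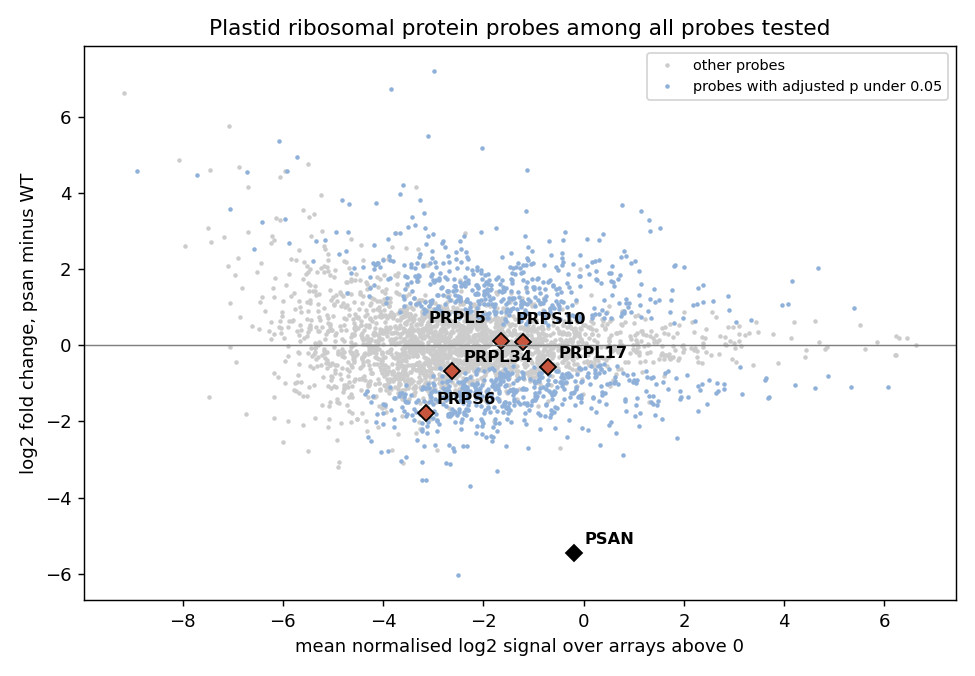
Log2 fold change (psan minus WT) against mean normalised log2 signal for the 3376 probes tested, with the 5 plastid ribosomal protein probes and PSAN as diamonds and probes past an adjusted p of 0.05 in blue. PRPS6 at -1.79 lay among the called probes, and the other 4 members lay between -0.67 and 0.11.

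Other genes of plastid gene expression were scarcely represented. Of 15 plastid translation factors and 21 plastid transcription genes listed, 0 had a single-gene probe, and of 44 further ribosomal protein genes found by name 0 did. Of 13 genes listed for plastid ribosome assembly and ribosomal RNA processing, AT2G25870 was measured, by 2 probes that disagreed. The brighter had a log2 fold change of -0.89 (limma adjusted p = 0.00494) and the dimmer 1.59 (adjusted p = 0.0153), so no direction is given for this gene. With averaged pairs neither probe passed (limma adjusted p = 0.148 and 0.161). Of 19 organellar aminoacyl-tRNA synthetases listed, the enzymes that load tRNAs with amino acids, AT4G33760 was measured and rose. Its deposited intensity was 0.340 to 0.524 in WT and 1.02 to 1.59 in psan, without overlap, as for 14.6% of all probes in that direction. Its log2 fold change was 1.15 ± 0.16 (SE). The limma adjusted p was 0.000334 over 12 arrays and 0.0767 with averaged pairs. The seed and root marker lists, of 9 and 5 genes, had 0 single-gene probes. Of 11 green tissue markers, LHB1B2, a light-harvesting protein of photosystem II, was measured. It was bright on all arrays, at 17.8 to 48.3 in WT and 17.9 to 21.5 in psan, and its log2 fold change of -0.32 did not pass (limma adjusted p = 0.483).

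The genes most like each member were found as the highest Pearson correlation of normalised log2 values over 12 arrays among 427 other single-gene probes above 0 on all arrays. These correlations are descriptions, since the arrays come in pairs and share the group difference. PRPS6 was most like AT2G02590 (r = 0.956) and AT4G16610 (r = 0.940), which had log2 fold changes of -2.15 and -1.70. With the group means removed these r were 0.871 and 0.821. PRPL17 was most like AT2G26110 (r = 0.885) and AT2G35490 (r = 0.871), with r of 0.798 and 0.701 once the group means were removed. PRPL34 was most like AT2G13690 (r = 0.846) and CBL, cystathionine beta-lyase (r = 0.845). PRPL5 was most like AT3G04650 (r = 0.845) and AT2G19870 (r = 0.796), and PRPS10 was most like AT1G62010 (r = 0.824) and AT3G12000 (r = 0.785). For PRPL34, PRPL5 and PRPS10 the r with the group means removed were 0.783 to 0.880. No member was among the 2 closest genes of another member.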

How the data were processed

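Expression arrays of total RNA from 6 WT and 6 psan samples were compared, with groups and sample numbers read from the sample titles. The values are intensities as deposited, on a linear scale. The authors' scaling, the array type and any background correction were not given in the sources used here. Of 3439 probes, the platform annotation gave 1 gene for 692, several for 870 and none for the other 1877. A TAIR10.1 gene table, which held 690 of the 692, served for names only.

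The 12 arrays were quantile normalised, after which values of exactly 0 were dropped. The log2 values of 3376 probes, those above 0 at least once per group, were fitted with limma 3.58.1 under R 4.3.3 as psan minus WT, with moderated two-sided tests and Benjamini-Hochberg adjustment over all of them (threshold 0.05). The fit was tested on simulated data with independent arrays and no zeros, so that test does not cover the pairs or the zeros seen here. Deposited intensities of single probes were compared by two-sided exact permutation tests. Probe number was corrected by a median polish of each array on the bin of 12 numbers and the place within it. Alternatives changed the scaling, zeros, filter, moderation, samples, pairs and threshold. Same-numbered arrays of the groups had deviations that correlated between -0.155 and 0.228, so the numbers were not used as pairs. Named were the 6 members, PSAN, list genes past the threshold (otherwise the 2 with the smallest p), and for each member the 2 genes most like it. The members and lists were chosen with earlier results of these data known. The number of arrays limits the precision. Figures were drawn with matplotlib 3.10.9.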

Additional observations from a re-analysis of the deposited data

Results flagged for a closer look

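Each group of 6 arrays was searched for 1 array set far apart, over 20 groups in all, and 1 was found, as many as chance would give at 1 in 20. The deposited intensity of PRPL5 on WT array 2 was 0.111, against 0.246 to 0.312 on the other WT arrays, a gap of 0.671 of the range. WT array 2 also had the most probes at 0, with 521. The part of the low overall level of that array in this value was not tested.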

How the results depend on the processing

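PRPS6 kept its direction under all alternatives run. It did not pass as deposited (log2 fold change -1.17), with averaged pairs (-1.79) or with averaged pairs and probe number corrected (-2.05). Leaving out each array gave -1.99 to -1.48, always past the threshold. Without psan arrays 1 and 2 PRPS6 had -1.26, without psan arrays 3 and 4 -1.83 and without psan arrays 5 and 6 -2.30. Each of these passed, as did 947 of 3349, 943 of 3362 and 827 of 3359 probes in turn. With zeros kept and a small offset added to all values PRPS6 had -1.44 and passed, as did 30.5% of all probes. On psan array 2 its deposited intensity of 0.0201 was below 0.0223, the 5th percentile of values above 0. PRPL17 newly passed with median centring (-0.98) and zeros left out before normalisation (-0.58), where 30.1% and 27.5% of all probes passed. It also passed with the dimmest 25% of probes left out (-0.57) and eBayes with trend and robust (-0.57). There 40.4% and 31.3% of the probes tested passed. Leaving out each array gave -0.68 to -0.50 for PRPL17, with 1 of 12 past the threshold. PRPL5, from -0.037 to 0.33 without each array, turned to -0.16 without psan arrays 3 and 4. PRPS10, from -0.089 to 0.26 without each array, turned to -0.16 with median centring, -0.46 with the probe number corrected, alone or with averaged pairs, -0.19 without psan arrays 1 and 2 and -0.18 without arrays 1 and 2 of both groups. The last and those without psan pairs were chosen after seeing the data. PRPL34 went from -0.90 to -0.29 without each array and passed under no alternative. The small over large subunit difference, -0.48 after normalisation, was -0.94 with the probe number corrected. The exact tests, with differences in mean deposited intensity of 0.153 for PRPL5, -0.131 for PRPL17 and -0.0919 for PRPS6, could not pass with averaged pairs, since 3 against 3 allows no p below 0.1. The 1010 probes past the threshold fell to 145 with averaged pairs, 553 with the pair as a random block, 17 with averaged pairs and probe number corrected and 586 at an adjusted p under 0.01, and were 891 to 980 without each array. The cause of these changes was not tested. Averaging leaves fewer samples. On deposited values, 753 probes were higher and 254 lower, against 484 and 526 after normalisation and 677 lower with median centring. With the sample number as a replicate block, PRPS6 had -1.79 (limma adjusted p = 0.00906), 896 probes passed and no call on a member changed. PSAN passed under every alternative run, and without each array it had -5.63 to -5.24. No background reading was analysed here, so how far PRPS6 lay above background in psan is not known.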
